A study of Mus musculus with 8 samples.

Results

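The Nuclear factor I (NFI) family was examined across whole mouse brains with and without Cav1, which encodes a structural protein of the membrane pits called caveolae. Its 4 members, Nfia, Nfib, Nfic and Nfix, were taken by gene symbol from a table of 34299 genes, and all 4 were found and tested. They were selected on their measured levels in the 3 groups of libraries and their differences in both comparisons, which were known beforehand. Their levels and differences are therefore given as a description, with no p-value, and the calls of the members support nothing beyond themselves. The groups were wild type (WT) fetuses at day 15 (3 libraries), Cav1 knockout (KO) fetuses at day 15 (3 libraries) and KO brains at week 70 (2 libraries), each from whole brain by sequencing of polyadenylated RNA. The labels call the fetal samples biological replicates and do not use the term for week 70. Strain, sex, litter, the knockout allele and its scope are not given in the sources used here, and WT brains at week 70 are not analysed here. Age was therefore compared within KO only, and WT day 15 differs from KO week 70 in both genotype and age.

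NFI proteins are transcription factors that share a conserved DNA-binding and dimerisation domain and bind as homodimers or heterodimers to the inverted repeat of TTGGC. In the embryonic brain they are made by radial glia and young neurons, and Nfia and Nfib are known for the switch from neurogenesis to gliogenesis and for the formation of the corpus callosum. Nfix is known for its part in the behaviour of neural stem cells in the hippocampus and the ventricular zone, and Nfic is best known for tooth root development.

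The members lie at 4 loci on GRCm38 in the GENCODE annotation. Nfia is at chr4:97772734-98118874 on the plus strand and Nfib at chr4:82290173-82705750 on the minus strand. Nfic is at chr10:81396186-81455635 and Nfix at chr8:84699876-84800344, both on the minus strand. Their transcripts fall into 2 kinds of base composition, which matters for the comparisons below. The longest transcripts of Nfia (9526 bases) and Nfib (9116 bases) held 42.7% and 43.3% GC, and those of Nfic (6237 bases) and Nfix (5476 bases) held 57.4% and 57.1%.

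Promoter windows from RefSeq (GRCm38.p6), from 250 bases before a transcription start to 50 after it, matched 3 of the 4 members: Nfia with 1 window, Nfic with 1 and Nfix with 4. The windows of Nfia and Nfic are shown for their contrast in base composition, and 1 window of Nfix for its paired letters of the NFI half-site. The Nfia window, on the plus strand at chr4:97581693-97581992, held 44.7% GC and 2 CpG dinucleotides. It lies upstream of the GENCODE gene model, which begins at 97772734. The Nfic window, on the minus strand at chr10:81427124-81427423, held 63% GC and 24 CpG. The Nfix window with the half-sites is on the minus strand at chr8:84772826-84773125 and held 44.3% GC. The Nfic and Nfix windows lie inside their gene models, whose 5′ ends are at 81455635 and 84800344. None of the 3 windows shown thus covers the 5′ end of its GENCODE gene model. Each window is written 5′ to 3′ in lower case, and capitals mark TTGGC or its reverse complement GCCAA.
Nfia: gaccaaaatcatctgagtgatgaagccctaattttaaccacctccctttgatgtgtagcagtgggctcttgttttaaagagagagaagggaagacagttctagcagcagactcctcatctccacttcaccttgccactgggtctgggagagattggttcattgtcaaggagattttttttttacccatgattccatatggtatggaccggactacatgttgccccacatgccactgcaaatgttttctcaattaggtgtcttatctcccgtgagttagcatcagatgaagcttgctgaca
Nfic: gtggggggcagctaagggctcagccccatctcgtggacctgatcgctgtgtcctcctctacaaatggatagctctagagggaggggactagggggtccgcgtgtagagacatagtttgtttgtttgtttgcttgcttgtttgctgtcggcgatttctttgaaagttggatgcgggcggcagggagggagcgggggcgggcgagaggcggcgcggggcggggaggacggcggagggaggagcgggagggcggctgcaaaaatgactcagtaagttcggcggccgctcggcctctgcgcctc
Nfix: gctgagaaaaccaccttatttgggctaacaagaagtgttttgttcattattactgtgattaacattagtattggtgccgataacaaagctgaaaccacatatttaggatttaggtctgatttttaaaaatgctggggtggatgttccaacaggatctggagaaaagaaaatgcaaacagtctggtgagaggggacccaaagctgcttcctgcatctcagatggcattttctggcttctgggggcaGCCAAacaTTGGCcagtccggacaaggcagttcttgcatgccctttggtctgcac
Both strands were searched for TTGGC, which stood in 46.7% of the 32851 windows in the table. The windows of Nfia and Nfic did not contain it. The Nfix window shown held 2 copies, at positions 246 and 254 of 300 from its 5′ end and facing away from each other, and 14.4% of all windows held at least 2. Of the other 3 Nfix windows, 2 held 1 copy each. The full inverted repeat, TTGGC and GCCAA with any 5 bases between them, stood in 12 windows of the table and in none of the members' windows. These are matches of letters within 300 bases and say nothing about binding.

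Total counts ranged from 19414747 to 20833397 in WT day 15, from 14110031 to 15245283 in KO day 15 and from 18924304 to 20203233 in KO week 70, so that depth separated the fetal genotypes. The labels record no batch, and batch and genotype cannot be told apart. Cav1 held 218 to 367 counts in WT, 0 to 3 in KO day 15 and 1 to 5 in KO week 70, so no library went against its label. Neuronal markers (8 genes, among them Tubb3, Stmn2 and Snap25) summed to 6057 to 6703 CPM (counts scaled by library size) in WT day 15, 4900 to 4949 in KO day 15 and 8142 to 8513 in KO week 70. The sum follows its most abundant genes: by age 4 of the 8 were called higher and 4 lower, beside 37.6% and 44.4% of all genes. The median log2 fold change of the 8 was -0.14. Fibroblast and meningeal markers, all 8 detected, set WT replicate 1 apart, at 4476 CPM against 319 and 533 in the other WT libraries and 71.6 to 144 in KO day 15. Week 70 replicate 1 held 7969 counts of Xist and 0 of 4 Y-linked genes, and replicate 2 held 4 and 2219, so the week 70 libraries differ in sex. The fetal libraries held at least 54531 counts of Xist and at most 4 Y-linked counts.

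In the fetal brain the NFI genes were all lower without Cav1. By week 70 the family had split: Nfic and Nfix were above their fetal KO levels while Nfia and Nfib were below them. With the length and GC correction described below, Nfix was higher at week 70 by 0.78 on the log2 scale. The corrected value of Nfia by age was -0.04 and was not called. Levels are CPM normalised by TMM over all 8 libraries. Nfia, a driver of astrocyte formation, stood at 154, 171 and 152 CPM in WT day 15 replicates 1 to 3. The KO day 15 libraries held 83.2, 80.5 and 89.1 CPM of Nfia, and the week 70 libraries 53.4 and 56.7. Its groups formed 3 separate steps, highest in WT and lowest at week 70.

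Nfib was the most abundant member by CPM in the fetal libraries, at 664, 701 and 604 CPM in WT and 406, 413 and 463 CPM in KO. At week 70 its level was 90.0 and 103 CPM. The groups again did not overlap.

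Nfic was the scarcest member in both fetal groups. WT day 15 libraries held 78.5, 58.0 and 59.2 CPM, with replicate 1 above the other pair, and KO day 15 libraries held 21.4, 18.7 and 15.4 CPM. At week 70 it reached 292 and 238 CPM, above every fetal library of either genotype.

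Nfix had the widest gap between the fetal genotypes. Its level was 576, 564 and 531 CPM in WT and 129, 121 and 125 CPM in KO. At week 70 the KO libraries held 414 and 494 CPM, between the fetal groups and overlapping neither. Week 70 replicate 1 was the higher of the pair for Nfic and the lower for Nfix.

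**Figure D1:**
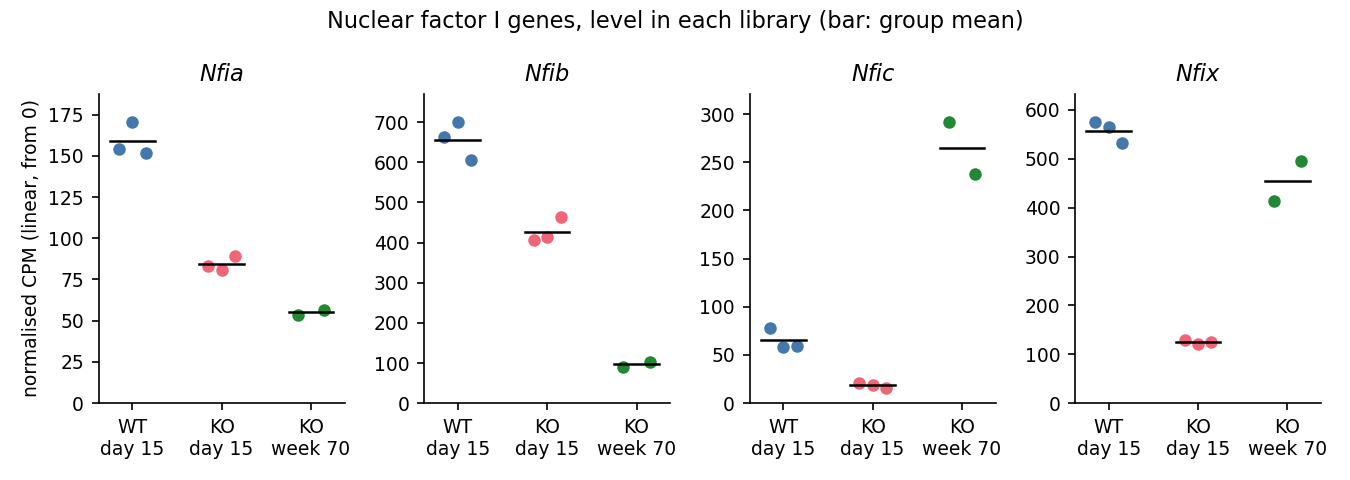
Normalised CPM (linear axis from 0) of each member in each library, with points for libraries in replicate order and bars for group means. Nfia and Nfib step down from WT day 15 to KO day 15 to KO week 70, whereas Nfic and Nfix are lowest in KO day 15, where Nfix is at 121 to 129 CPM against 531 to 576 in WT.

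To set members against each other, CPM was divided by the length of the merged exons (10891 bases for Nfia, 14957 for Nfib, 6630 for Nfic and 7351 for Nfix). On this scale of CPM per kb, Nfix led in WT day 15 at 75.8 ± 3.13, ahead of Nfib at 43.9 ± 3.26, Nfia at 14.6 ± 0.956 and Nfic at 9.84 ± 1.73 (SD, n = 3). In KO day 15 Nfib led at 28.6 ± 2.07 CPM per kb, with Nfix at 17.0 ± 0.558, Nfia at 7.74 ± 0.403 and Nfic at 2.79 ± 0.452 (SD, n = 3). On the log2 scale the level of Nfix relative to Nfib was 0.79 in WT and -0.75 in KO (means of 3 libraries each). These levels carry no correction for GC content. With the correction described below, the shift between the genotypes was 0.78 in place of 1.54, about the size of the WT gap, so the exchange of places is not separable from the trend on length and GC. At week 70 Nfix stood at 56.4 and 67.3 CPM per kb in the 2 libraries, Nfic at 35.9 to 44.1, Nfib at 6.02 to 6.89 and Nfia at 4.90 to 5.21. Neighbours in each of these orders did not overlap between libraries of the group, and the orders were the same with the longest transcript as the length.

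The make-up of the family shows the same data as shares of its summed CPM per kb. Nfix made up 52.6 ± 0.75% of the family in WT day 15, 30.3 ± 1.25% in KO day 15 and 50.6% and 58.4% in the week 70 libraries. The share of Nfib was 30.4 ± 1.06%, 50.9 ± 2.05%, and 5.40% and 5.98% in the same order. Nfic took 6.82 ± 1.04% in WT, 5.00 ± 0.933% in KO day 15, and 39.6% and 31.1% at week 70. For Nfia the shares were 10.1 ± 0.555%, 13.8 ± 0.191%, and 4.40% and 4.52% (SD, n = 3 in the fetal groups). In short, a family led by Nfix and Nfib in the fetus was one of Nfix and Nfic at week 70. The 4 members summed to 1437 ± 79.4 CPM in WT day 15 and to 655 ± 32.5 CPM in the fetal KO (SD, n = 3), and to 850 and 892 CPM at week 70.

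**Figure D2:**
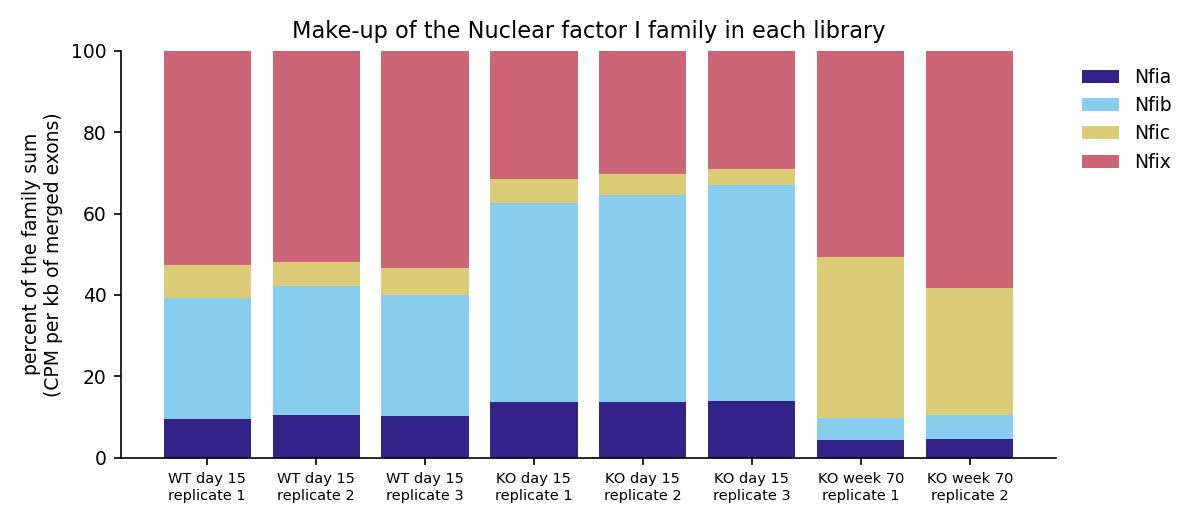
Share of each member in the family's summed CPM per kb of merged exons (percent, stacked to 100) in the 8 libraries. Nfib takes 48.8 to 52.9% in KO day 15 against 29.8 to 31.7% in WT, and Nfic takes 31.1 and 39.6% at week 70.

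The fetal comparison sets RNA levels in KO beside those in WT at day 15, where batch and genotype cannot be told apart. Nfix was 4.34-fold lower in KO, a log2 fold change of -2.12 (SE 0.061). Nfic had a log2 fold change of -1.78 (SE 0.134), Nfia -0.87 (SE 0.0699) and Nfib -0.58 (SE 0.078). All 4 members were called lower by edgeR, where 32.5% of the 19147 genes tested were called lower and 30.1% higher. No KO library reached a WT library for any member, which held in the same direction for 36.3% of the genes tested and in the other direction for 32.1%. Of all calls, 48.1% were higher in KO, and 60.8% with upper-quartile scaling, under which the median over all genes went from 0.03 to 0.20 on the log2 scale. With that scaling the members' values lay closer to 0 but kept their sign, for example -0.41 for Nfib.

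Differences between the genotypes moved with the base composition of transcripts across all genes. The median log2 fold change was 0.48 for the 5306 genes under 45% GC and -0.46 for the 3995 genes at 55% or more. Nfic and Nfix belong to the latter and Nfia and Nfib to the former. In a fit corrected for transcript length and GC, the log2 fold changes were -0.78 (SE 0.0603) for Nfia, -0.42 (SE 0.0636) for Nfib, -0.79 (SE 0.107) for Nfic and -1.21 (SE 0.0673) for Nfix. All 4 were again called lower, against 25.1% of genes called lower in that fit and 26% called higher. Without the correction Nfic lay 0.90 below Nfia on the log2 scale, and with it the members differed by 0.01. Nfix stayed the member with the lowest value and Nfib that with the highest, 1.54 apart before the correction and 0.78 after it.

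The order by genotype did not hang on the WT library rich in fibroblast genes. Without WT replicate 1 the log2 fold changes were -0.92 for Nfia, -0.59 for Nfib, -1.65 for Nfic and -2.11 for Nfix. Among the KO libraries, replicate 3 had the highest CPM of Nfia and Nfib and the lowest of Nfic.

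**Figure D3:**
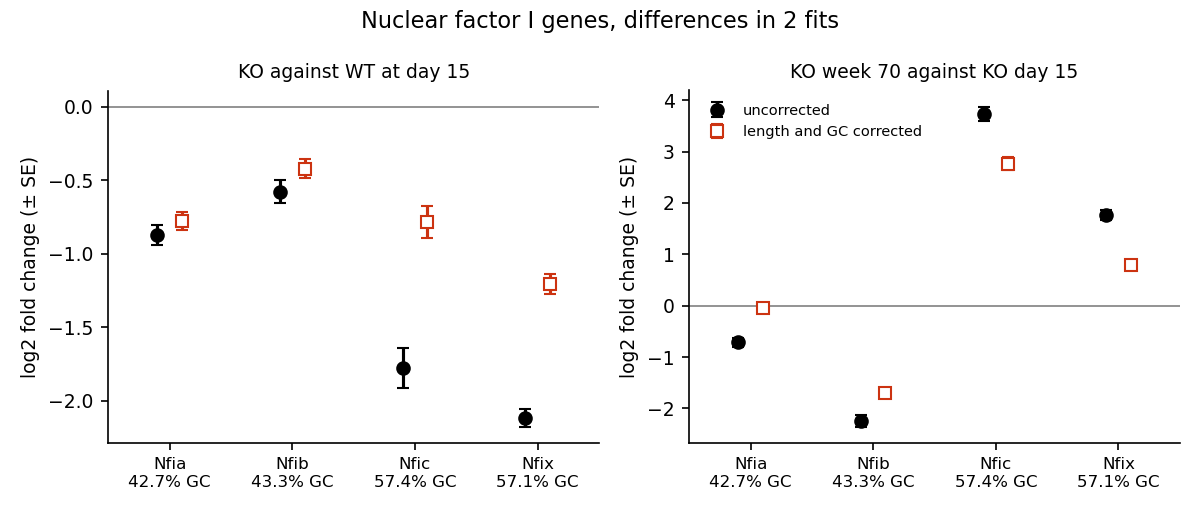
Log2 fold change with its standard error for each member in KO against WT at day 15 (left) and KO week 70 against KO day 15 (right), uncorrected (filled) and corrected for transcript length and GC content (open), with the GC content of the longest transcript under each name. The correction brings Nfic from -1.78 to -0.79 at day 15 and Nfia from -0.71 to -0.04 by age.

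The comparison of ages used the same KO day 15 libraries as the fetal one, so the values of both stand side by side and were not set against each other. It gave opposite directions within the family. Nfic was 13.4-fold higher at week 70, a log2 fold change of 3.74 (SE 0.136), and Nfix was higher by 1.76 (SE 0.0964). Nfib was 4.75-fold lower, a log2 fold change of -2.25 (SE 0.111), and Nfia had -0.71 (SE 0.0905). So 2 members were called higher, against 37.6% of the 20000 genes tested, and 2 lower, against 44.4%. No week 70 library overlapped a KO day 15 library for any member, which held for 42.3% of genes with week 70 higher and 45.6% with week 70 lower.

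Base composition moved with age as well. For the 5593 genes under 45% GC the median difference was -1.02 on the log2 scale, and for the 4116 genes at 55% or more it was 0.58. After correction Nfic stood at 2.76 (SE 0.132), Nfix at 0.78 (SE 0.0853) and Nfib at -1.69 (SE 0.0785), all still called, where 39.6% of genes were called higher and 39.2% lower. The value of Nfia became -0.04 (SE 0.0719) and was no longer called, so that its difference by age is not separable from the trend on length and GC. The distance of 1.98 between Nfic and Nfix, which share a high GC content, was 1.98 in both fits, and that of Nfia above Nfib was 1.53 and 1.65. The correction depends on length and GC alone, so it moves 2 members of like composition by similar amounts. The likeness of these distances between the fits is therefore largely built in.

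Ratios within a library need no scaling between libraries. The log2 ratio of Nfib to Nfix was 0.19 to 0.31 in WT day 15, 1.65 to 1.89 in KO day 15 and -2.26 to -2.20 at week 70. These ratios still carry any effect of base composition, which differs between the pair Nfia and Nfib and the pair Nfic and Nfix. The log2 ratio of Nfia to Nfic was 0.97 to 1.56 in WT, 1.96 to 2.53 in KO day 15, and -2.45 to -2.07 at week 70. Its fetal shift of 0.90 was 0.01 after the length and GC correction, and that of Nfib to Nfix was 0.78. Of the 6 pairs, only Nfic to Nfix overlapped between the fetal genotypes, at -3.28 to -2.87 in WT and -3.02 to -2.59 in KO. None of the 6 overlapped between the ages, and the widest shift was in Nfib to Nfic, from a mean of 4.54 in KO day 15 to -1.45 at week 70. Single genes often did not overlap either: 36.3% lower and 32.1% higher by genotype, and 42.3% higher and 45.6% lower by age. The share for pairs of other genes was not computed, so these counts are no trait of the family.

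A list of 14 genes reported elsewhere to be regulated by NFI proteins was read in the same fits. It was chosen with earlier results of these data known, so its counts and p-values support nothing beyond the listed genes. At day 15, 12 of them were tested, of which 8 were called lower in KO, 1 higher and 3 not, where 32.5% of all genes were called lower and 30.1% higher. Their median log2 fold change was -0.83 against 0.03 over all genes tested. The largest fall was in Apcdd1, an inhibitor of Wnt signalling, with means of 132 CPM in WT and 31.5 CPM in KO and a log2 fold change of -2.02 (SE 0.0955, edgeR adjusted p 5.32e-08) and -1.5 in the corrected fit. Efnb1, an ephrin that guides axons and migrating cells, fell by 2.01 on the log2 scale and Cntn2, an axonal adhesion protein, fell by 1.66. Their corrected values were -1.36 and -0.68. Fabp7, the fatty acid binding protein of radial glia, went the other way, with 281 ± 30.6 CPM in WT against 785 ± 40.9 CPM in KO (SD, n = 3). Its log2 fold change was 1.52 (edgeR adjusted p 1.67e-07), and 0.50 in the corrected fit. With the correction 9 of the 12 were called lower and 3 higher, beside 25.1% and 26% of all genes in that fit. Gfap, the astrocyte filament protein, and Mmd2 then passed the threshold as higher too. Gfap was near the detection limit in the fetus, with 0.91 ± 0.145 CPM in the 3 WT fetuses and 1.27 ± 0.409 CPM in the 3 KO fetuses (SD).

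By age, 13 of the 14 were tested, with 6 called higher at week 70, 4 lower and 3 not, where 37.6% of all genes were called higher and 44.4% lower. The median was 0.37 against -0.19 over all genes. With the correction 8 were called higher and 5 lower, beside 39.6% and 39.2% of all genes, with a median of 0.78. Gfap rose to a mean of 553 CPM, which is 8.65 on the log2 scale (edgeR adjusted p 1.00e-10). Insc, a regulator of spindle orientation, rose by 4.78. Ezh2, the Polycomb methyltransferase, fell by 5.41 and Fabp7 fell by 5.16 on the log2 scale. In the corrected fit the values were 8.10 for Gfap, 4.35 for Insc, -4.92 for Ezh2 and -3.23 for Fabp7. The list mixes genes reported as activated and as repressed, and its counts say nothing about the activity of NFI proteins.

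The list of 14 regulators and partners was likewise chosen with earlier results of these data known, and its counts and p-values are a description. All 14 were tested at day 15, and 12 were called lower in KO and 0 higher by edgeR. Beside them stand the same 32.5% and 30.1% of all genes. The median log2 fold change of the list was -1.16. At an unadjusted p under 0.05, edgeR had 1 higher (Zbtb20). DESeq2 called 0 higher at an adjusted p under 0.05. Notch1, the receptor whose signalling induces Nfia, was at 167 ± 4.05 CPM in WT and 35.3 ± 3.79 CPM in KO (SD, n = 3), a log2 fold change of -2.20 (edgeR adjusted p 1.59e-08). Sox9, the glial factor that acts upstream of Nfia and with it, was at 84.6 ± 2.89 and 19.3 ± 1.27 CPM, a log2 fold change of -2.09 (edgeR adjusted p 1.59e-08), and Emx2, a patterning factor of the cortex, fell by 1.30. Runx2 had a value of -1.88 that rested on WT replicate 1 (edgeR adjusted p 0.048). Without that library it was -0.12, with an edgeR adjusted p of 0.76. Leaving out any of the 3 KO libraries ended its call too. Zbtb20 and Atf3 did not pass the threshold, at 0.23 and -0.77. With length and GC corrected, 8 were called lower, 0 higher and 6 not, beside 25.1% of all genes lower and 26% higher. The corrected median was -0.57, and Sox9 (-1.81), Notch1 (-1.14) and Emx2 (-1.03) remained among those called lower.

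By age the same 14 genes were divided, with 8 called higher at week 70, 5 lower and 1 not, beside 37.6% and 44.4% of all genes, and a median of 0.49. The largest rises were in the oligodendrocyte lineage factors Sox10 (5.27) and Olig2 (2.49) and in Runx2 (2.65, all log2). Pax6, a factor of cortical progenitors, fell by 1.99. Pou3f2, an upper-layer neuronal factor, fell by 1.62. Sox9 rose by 1.75, close to Nfix at 1.76 in the uncorrected fit only. In the corrected fit Sox9 rose by more than Nfix, which stood at 0.78. The correction left 6 higher and 7 lower, beside 39.6% and 39.2% of all genes, with a median of 0.00. It gave 4.18 for Sox10, 1.72 for Olig2, 2.25 for Runx2 and -2.26 for Pax6.

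**Figure D4:**
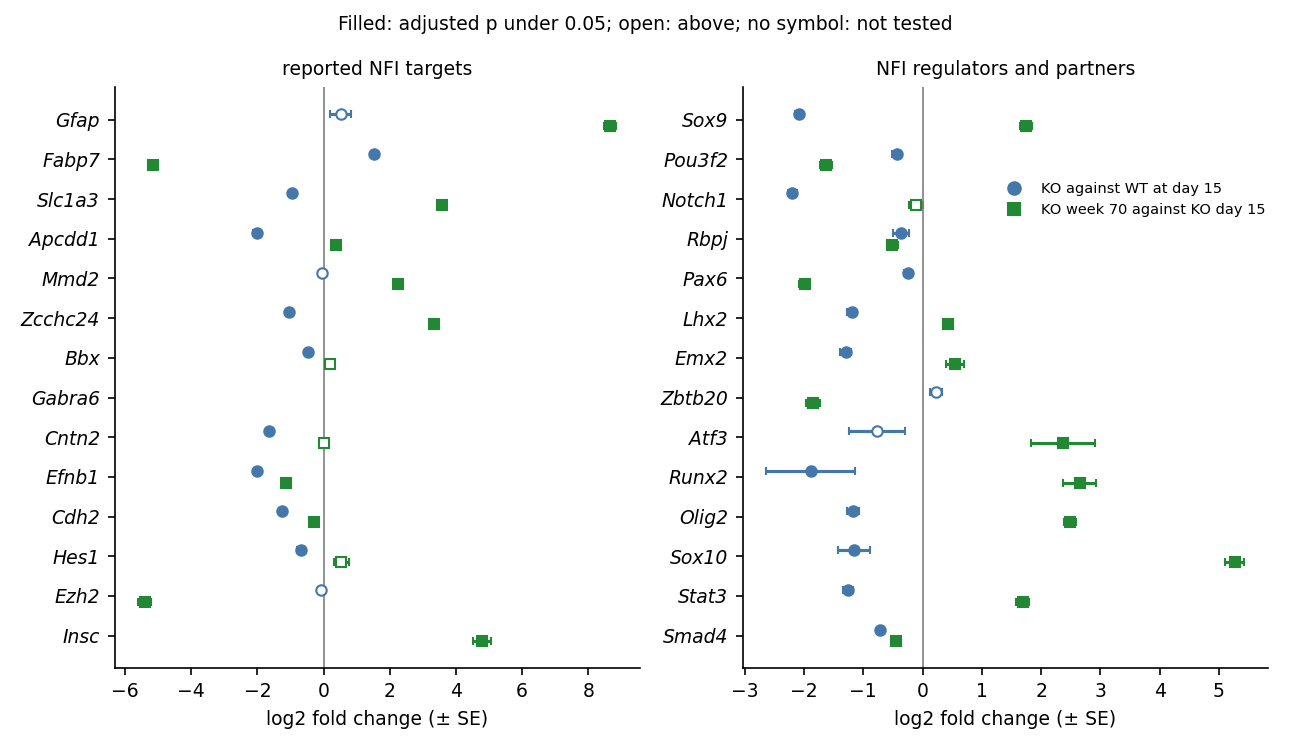
Log2 fold change with its standard error of each gene of the 2 lists, for KO against WT at day 15 (circles) and KO week 70 against KO day 15 (squares), filled where the adjusted p is under 0.05. At day 15 most filled circles lie below 0, with Fabp7 at 1.52 as the exception, and the squares spread from -5.41 (Ezh2) to 8.65 (Gfap).

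Markers of cells that make NFI proteins, and of other cells in the samples, moved between the groups. In these bulk libraries fewer cells of a type and less RNA per cell cannot be told apart. Astrocyte markers (10 of 10 detected) summed to 623 to 749 CPM in WT day 15, 312 to 347 in KO day 15 and 11438 and 12112 at week 70. Progenitor markers (10 of 10) summed to 1694 to 1843, 1394 to 1488, and 284 and 307 CPM in the same order. That sum includes Fabp7, at means of 281 CPM in WT and 785 CPM in KO day 15. Taken singly, 8 of the 10 were called lower in KO at day 15 and 2 higher, beside 32.5% and 30.1% of all genes. Their median log2 fold change was -0.68, and -0.46 after correction, with 6 then called lower and 1 higher. Oligodendrocyte markers (8 of 8) stood at 110 to 137, 89.5 to 99.3, and 13670 and 13787 CPM. Endothelial markers (6 of 6) were at 171 to 235 CPM in WT, 50.7 to 65.8 in KO day 15, and 292 and 319 at week 70. Erythroid markers (6 of 6) were at 953 to 1234 CPM in WT, 3563 to 4373 in KO day 15, and 490 and 777 at week 70. Choroid plexus markers (5 of 5) were at 71.3 and 2389 CPM in week 70 replicates 1 and 2. Microglial markers (6 of 6) were at 36.4 to 64.1, 21.9 to 24.8, and 339 and 419 CPM. Called one by one at day 15, astrocyte markers had 6 lower and 1 higher of 10 tested. Oligodendrocyte markers had 4 lower and 2 higher of 7, and microglial markers 3 lower and 1 higher of 6, beside the same shares of all genes. After correction the counts were 6 and 1, 2 and 1, and 2 and 0, beside 25.1% lower and 26% higher. Pericyte and smooth muscle markers (6 of 6) overlapped between the fetal genotypes, at 106 to 139 and 115 to 128 CPM, and stood at 174 and 179 CPM at week 70. Gene by gene, 3 of the 5 tested at day 15 were called lower in KO and 1 higher, beside 32.5% and 30.1% of all genes. These 5 markers had a median log2 fold change of -1.66, and -0.88 after correction. Cartilage and bone markers followed WT replicate 1, at 590 CPM against 88.1 and 99.0 in the other WT libraries and 41.1 to 46.0 in KO day 15, where Matn1 was at 0. Skeletal muscle and skin markers summed to at most 24.2 and 42.7 CPM in any library, and the skin markers Krt5 and Krt14 were at 0 at week 70. The astrocyte list shares Gfap and Slc1a3 with the target list, the progenitor list shares Fabp7 and Pax6 with the 2 NFI lists, and the oligodendrocyte list shares Sox10. The part of these cells in the NFI differences was not tested.

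Genes that overlap a member can share its reads where counting ignores strand, and the strand setting is not given in the sources used here. Gm11266, an antisense gene within Nfib with no exonic overlap, held 251 to 309 counts in WT day 15, 316 to 361 in KO day 15 and 40 and 52 at week 70. Its log2 fold change at day 15 was 0.56 (edgeR adjusted p 0.001), opposite in sign to Nfib, and -0.32 after correction (edgeR adjusted p 0.0162). At week 70 it fell by 2.78. E130114P18Rik, which overlaps the exons of Nfia by 4 bases on the other strand, had 289 to 333 counts in WT, 378 to 426 in KO day 15 and 92 to 169 at week 70. It rose by 0.65 at day 15 (edgeR adjusted p 1.44e-04) but not after correction, at -0.11 (edgeR adjusted p 0.313). No gene overlapping Nfic held more than 11 counts in a library and none overlapping Nfix more than 82, small beside the members' own counts.

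The genes nearest in pattern to each member were found over the 8 libraries, as the smallest root mean square deviation of log2 CPM after each gene was centred on its own mean, among 12822 named genes. With 3 groups that differ widely, such likeness mostly reflects the group means. The levels used carry no correction for length or GC content. Nfia was closest to Zfp646 (deviation 0.0442), Ylpm1 (0.0531) and Insr, the insulin receptor (0.0675). For Nfib the nearest were Zdbf2 (0.0753), the atypical cadherin Fat3 (0.0788) and Kifc5b (0.0973). Nfic was followed by Adamts4, an aggrecan protease (0.129), the vascular receptor Flt1 (0.146) and the transcription factor Klf13 (0.173). Nfix was closest to Sez6l (0.103), the ubiquilin Ubqln2 (0.107) and Sox9 (0.114), the last of which had mean levels of 84.6, 19.3 and 69.6 CPM in WT day 15, KO day 15 and KO week 70. Deviations of the members from each other ran from 0.615 (Nfia and Nfib) to 2.40 (Nfib and Nfic). The nearest genes were picked as the smallest deviations among 12822 candidates, so their values are no measure for those between members.

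**Figure D5:**
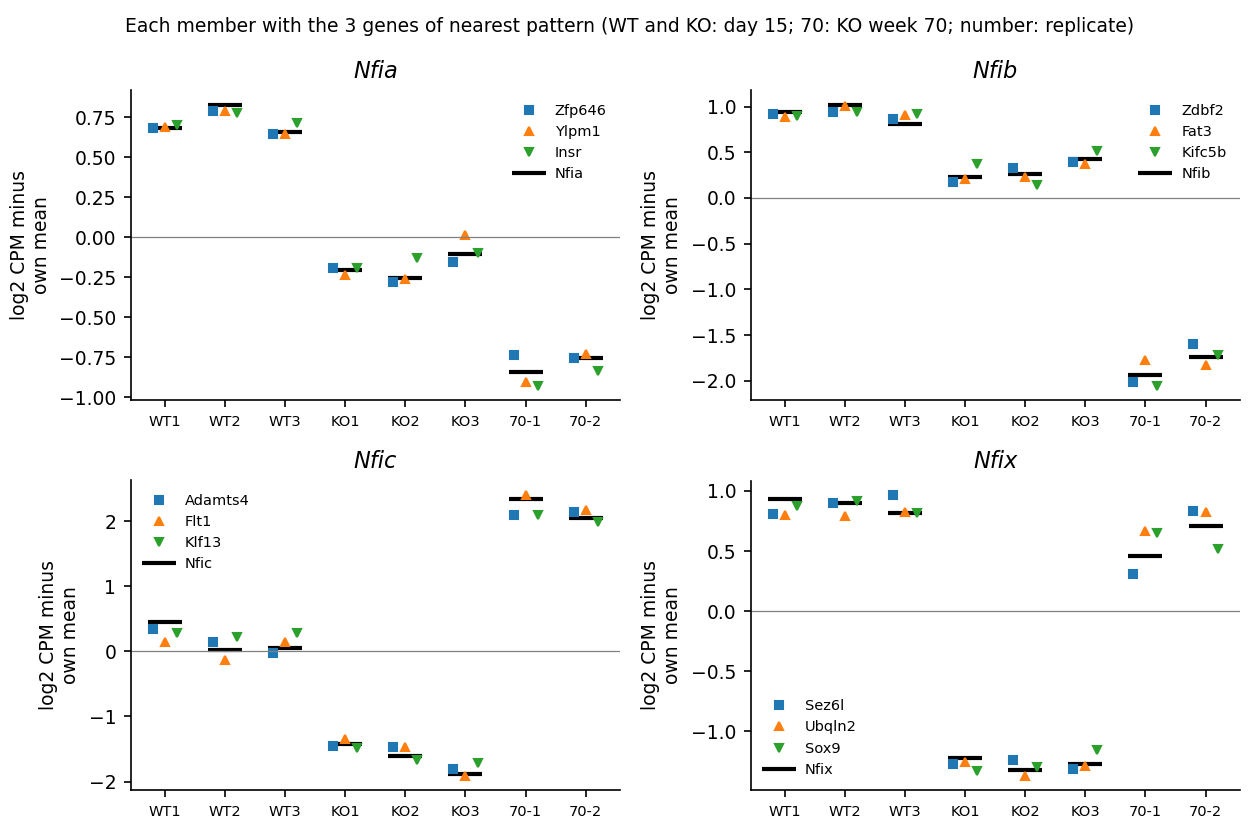
Log2 CPM minus each gene's own mean in the 8 libraries for the 4 members (black bars) and the 3 genes of nearest pattern to each (coloured symbols, set side by side). Nfix and its neighbours are low in KO day 15 alone, and Nfia and Nfib with theirs are highest in WT day 15 and lowest at week 70.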

How the data were processed

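RNA of 8 mouse whole-brain samples was sequenced after poly-T selection and random priming, per the labels' protocols. The deposited table gives raw counts of reads for each gene, by Ensembl identifier. FastQC, cutadapt, Trimmomatic, HISAT2, featureCounts and edgeR, and both GRCm38 and GRCm39, are listed in the submitters' processing notes, with no version or role. Annotation, strand setting and the handling of multi-mapping reads are not given in the sources used here. Of 34299 identifiers, 97.3% matched GENCODE M 21 (GRCm38), used for lengths, GC content and positions, and 351 genes had a blank name.

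The members and lists were chosen with earlier results of these data known. Samples were grouped by title. Replicates of a group differed by more than counting noise (mean chi-square per gene of at least 3.01). Within the 6 fetal and the 5 KO libraries, edgeR 4.0.16 (R 4.3.3) kept genes by filterByExpr, scaled by TMM, and ran the two-sided quasi-likelihood F-test with Benjamini-Hochberg adjustment over all genes tested and a threshold of 0.05. Standard errors follow from the F statistic. For the correction, the log2 CPM of each library relative to the mean of the gene was smoothed on transcript length and GC (mgcv 1.9.3) and entered as an offset. The GC classes of 45 and 55% were set after the data were seen. The computations were tested on simulated counts with no trend on length or GC and far fewer changed genes than were called here. That simulation therefore does not test how well the correction removes such a trend. Replicate numbers are shared between groups but do not pair the fetal samples.

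Named genes were the members, Cav1, per list and comparison the 4 called genes of largest absolute change with a mean of at least 50 counts, and 3 genes of like pattern per member (prior count 2). Other genes named were chosen after their values were seen. Alternatives were scaling by upper quartile or RLE, testing without a filter or from a mean of 10 counts, DESeq2 1.42.0, a joint fit of the 8 libraries, the correction, the replicate block, both, each library left out, and the longest transcript as length. Precision is limited by 2 or 3 libraries a group, and intervals from counts would cover counting error only.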

Additional observations from a re-analysis of the deposited data

How the results depend on the processing

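Every member kept its direction and its side of the threshold at day 15 under the 9 other settings and with each of the 6 libraries left out. By age the same held for Nfib, Nfic and Nfix, while Nfia was no longer called with the length and GC correction (-0.045) or with the correction and the replicate block (-0.044). Leaving out 1 library gave -0.92 to -0.82 for Nfia, -0.65 to -0.53 for Nfib, -1.90 to -1.65 for Nfic and -2.16 to -2.10 for Nfix at day 15. By age the ranges were -0.76 to -0.66, -2.35 to -2.14, 3.60 to 3.88 and 1.63 to 1.90 in that order, with a lone week 70 library assumed to vary like the others. Calls over all genes ranged from 8814 to 12542 at day 15, where 11993 were made, and from 14023 to 18622 by age, where 16390 were made. By age, the median over all genes was -0.19, -0.44 when scaled by upper quartile, -0.90 without a filter and -0.89 with DESeq2, and at day 15 it was 0.14 without a filter and 0.19 with DESeq2. Genes of the target list called higher at day 15 numbered 3 with the correction and 2 with the correction and the replicate block, against 1. Of the regulators and partners 1 was called higher at day 15 with upper-quartile scaling, and 0 to 1 with a library left out (1 without WT replicate 2). Runx2 at day 15 lost its call in 6 of the 9 other settings, at -1.72 with upper-quartile scaling, -1.87 with a mean of at least 10 counts, -1.94 with DESeq2, -1.26 with the correction, -1.24 with the replicate block and -0.65 with both.

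Replicate numbers did not pair the samples: the deviations of same-numbered fetal libraries correlated at -0.19 to -0.16, and none correlated best with its own number. With the replicate block edgeR made 11184 calls at day 15 and 14876 by age, and the block alone changed no call of a member. With the longest transcript as length, CPM per kb in WT day 15, KO day 15 and KO week 70 was 16.7, 8.84 and 5.78 for Nfia, 72.0, 46.8 and 10.6 for Nfib, and 102, 22.8 and 83.0 for Nfix. The cause of these differences was not tested. With 2 libraries at week 70, of different sex, the age comparison has the least precision.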
